A study of Mus musculus with 9 samples.

Results

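The hypoxia-inducible factor (HIF) genes described here are 10 named genes of the response to low oxygen, chosen by symbol out of the 24421 genes counted in a series on R-propranolol. They are the HIF alpha subunits Hif1a and Epas1, the HIF prolyl hydroxylases Egln1 and Egln3, and the HIF targets Adm, Bnip3, Car9, Ankrd37, Ndrg1 and P4ha1. All 10 had enough counts to be tested, among 13901 genes tested in all. RNA-seq was done on 9 tumors grown from bEnd.3 cells (mouse endothelial cells that carry the polyoma middle T oncogene) in the flank of athymic Nu/Nu nude mice. Male mice were treated from the second day after the cells were injected, with 5 intraperitoneal injections a week. One group, with 4 libraries, received the ethanol vehicle in buffered saline (vehicle), and the other, with 5 libraries, was given R-propranolol at a daily dose of 6 mg/kg. R-propranolol is the enantiomer of propranolol with little activity at beta-adrenergic receptors, and the comparison asks what it changes in the RNA of vascular tumors. Both groups share the cell line and the host strain, the ages of the mice are not stated, nude mice lack T cells, and each tumor also holds host cells. The methods name 5 mice per group, of which 4 vehicle libraries were analysed here. The titles of vehicle replicates 1 and 2 share a number that differs between the other titles, and the labels do not say what it stands for. These replicates were taken as separate tumors, so that the p-values measure the spread between tumors that may not all come from separate mice.

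HIF is a pair of an alpha subunit, such as HIF-1 alpha (Hif1a) or HIF-2 alpha (Epas1), and the beta subunit ARNT. When oxygen is plentiful, prolyl hydroxylases of the EGLN family modify the alpha subunits, which are then bound by the VHL protein and degraded. When oxygen falls the alpha subunits persist, bind the hypoxia response element of DNA and raise the RNA of target genes, among them Egln1 and Egln3 themselves. The main control of the alpha subunits is thus on the protein, which RNA counts do not measure. Endothelial cells contain both alpha subunits, and HIF-2 alpha was first known as an endothelial protein.

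A pair of tumors stood apart from the other 7. In R-propranolol replicate 5, 10 skeletal muscle genes summed to 145000 CPM (counts divided by the TMM-scaled library size), which was 10.3% of its counts, against 4.96 to 349 CPM in those 7. This tumor also had 8160 CPM over 8 adipocyte genes against 81.7 to 438 CPM, and 265 CPM over 10 proliferation genes against 1130 to 1470 CPM. In R-propranolol replicate 2, 8 fibroblast genes summed to 31300 CPM and 8 macrophage genes to 3310 CPM, against 5230 to 8500 CPM and 722 to 2020 CPM in those 7. Replicate 5 had 16100 and 3860 CPM for these same lists. All 12 endothelial marker genes had counts in every tumor, for example Cdh5, the endothelial cadherin, at 88.4 to 234 CPM, and their sum was 480 to 643 CPM in those 7 tumors, 1050 CPM in replicate 2 and 744 CPM in replicate 5. Single markers moved both ways in replicate 5: the endothelial receptor gene Tie1 was at 60.0 CPM against 150 to 205 CPM in the other 8 tumors, while Tek was at 49.3 against at most 17.6, Kdr at 84.7 against at most 69.5 and Cldn5 at 23.6 against at most 17.1 CPM. The other 8 markers lay within the range of those tumors. Counts over genes ranged from 20599904 to 27852630 per library. Values are given with all 9 tumors, and for many results also without R-propranolol replicate 5. In RNA from whole tumors, fewer cells of a type and less RNA per cell cannot be told apart.

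HIF binds DNA letters ACGTG or GCGTG, the core of the hypoxia response element. These cores were looked for on both strands in the 250 bases before the start of each gene in RefSeq's annotation of GRCm38.p6. Of the members, 8 were matched in that table (Epas1 and Ndrg1 were not), and 8 of 8 held at least 1 core, against 38.6% of 32851 promoters. The core ACGTG was in 7 of the 8, against 16.6% of all promoters, and GCGTG, with or without ACGTG, was in 28.2% of all promoters. CACGTG reads as ACGTG on both strands and so counts on each. The windows of Adm, Egln3 and P4ha1 are shown because they hold one of the cores alone or both, and these genes stand for a vascular peptide, a feedback regulator and a collagen enzyme. They are written 5′ to 3′ on the strand of the gene with the cores, on either strand, in capitals.

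Adm, chr7:110627407-110627656, plus strand: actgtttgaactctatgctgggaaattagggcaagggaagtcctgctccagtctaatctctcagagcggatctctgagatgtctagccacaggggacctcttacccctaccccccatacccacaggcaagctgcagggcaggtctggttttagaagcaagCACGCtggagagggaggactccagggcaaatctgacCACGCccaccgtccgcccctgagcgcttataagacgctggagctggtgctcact
Egln3, chr12:54203875-54204124, minus strand: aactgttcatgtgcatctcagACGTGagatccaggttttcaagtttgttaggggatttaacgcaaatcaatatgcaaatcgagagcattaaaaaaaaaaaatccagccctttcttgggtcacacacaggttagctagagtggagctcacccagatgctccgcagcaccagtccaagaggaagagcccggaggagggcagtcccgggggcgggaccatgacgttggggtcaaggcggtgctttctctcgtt
P4ha1, chr10:59323046-59323295, plus strand: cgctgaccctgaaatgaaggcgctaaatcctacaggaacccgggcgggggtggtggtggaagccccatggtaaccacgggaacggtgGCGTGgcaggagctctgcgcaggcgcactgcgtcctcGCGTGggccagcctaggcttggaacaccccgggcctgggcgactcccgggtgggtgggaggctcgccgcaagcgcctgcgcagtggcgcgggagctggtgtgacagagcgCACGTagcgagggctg

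In Adm both matches were GCGTG on the other strand, in Egln3 the single match was ACGTG, and P4ha1 held both cores. Bnip3 held 5 matches, the most of the 8, of which 4 lie in the 40 bases shown here for their closeness. Car9 held 1 match, which lies in the last 30 bases before its RefSeq start. GENCODE M21 places the start of Car9 further upstream. Of its 250-base window, 60 bases lie in an exon of that annotation, these 30 among them. It also starts Hif1a and Ankrd37 further upstream than RefSeq. Their windows (chr12:73907617-73907866 and chr8:45999851-46000100) therefore lie inside the GENCODE genes. Egln1 has 70 window bases in its own exon, its ACGTG among them, Ankrd37 has 17 and Bnip3 has 13.

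Bnip3, chr7:138909592-138909631, minus strand: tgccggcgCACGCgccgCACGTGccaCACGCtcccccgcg
Car9, chr4:43506996-43507025, plus strand: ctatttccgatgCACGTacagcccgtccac

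A match to these letters is a description of the sequence and does not show that HIF was bound there in these tumors.

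**Figure D1:**
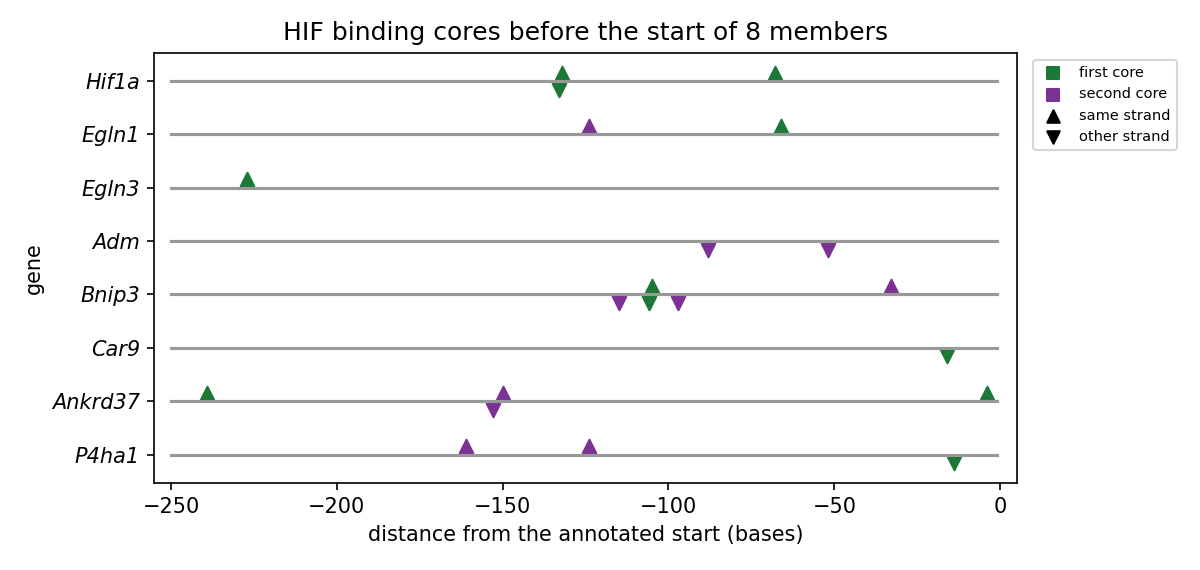
Matches to the HIF cores before the RefSeq start of 8 members (rows), by distance in bases. The first core ACGTG is green and the second core GCGTG is purple. Matches on the strand of the gene are above each line and those on the other strand below it. Every row holds at least 1 match, and Bnip3 holds the most with 5.

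Across all 9 tumors none of the 10 members passed the comparison of R-propranolol with vehicle. By edgeR's quasi-likelihood test 0 of 10 had an adjusted p under 0.05, as for all genes tested (0.00%), and 0 of 10 had an unadjusted p under 0.05, where 2.30% of all genes did (2.01% higher and 0.288% lower). For 8 of the 10 the log2 fold change was positive, against 54.3% of all genes, with a median of 0.25 over the members and 0.03 over all genes. No member had groups that did not overlap in CPM, against 1.26% of genes. The count of positive members was 10 of 10 without R-propranolol replicate 5 (53.7% of all genes), 6 of 10 without replicate 2 (51.0%) and 9 of 10 without both (49.0%), and the median over the members was 0.33, 0.02 and 0.25. Without replicate 5, Adm was the single member with an unadjusted p under 0.05, where 3.78% of genes had one. Scaled by library size alone, without TMM, 7 of 10 members were positive with a median of 0.15, while the median over all genes moved from 0.03 to -0.10 and the genes with a positive value went from 7545 to 4981 of 13901 (35.8%).

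**Figure D2:**
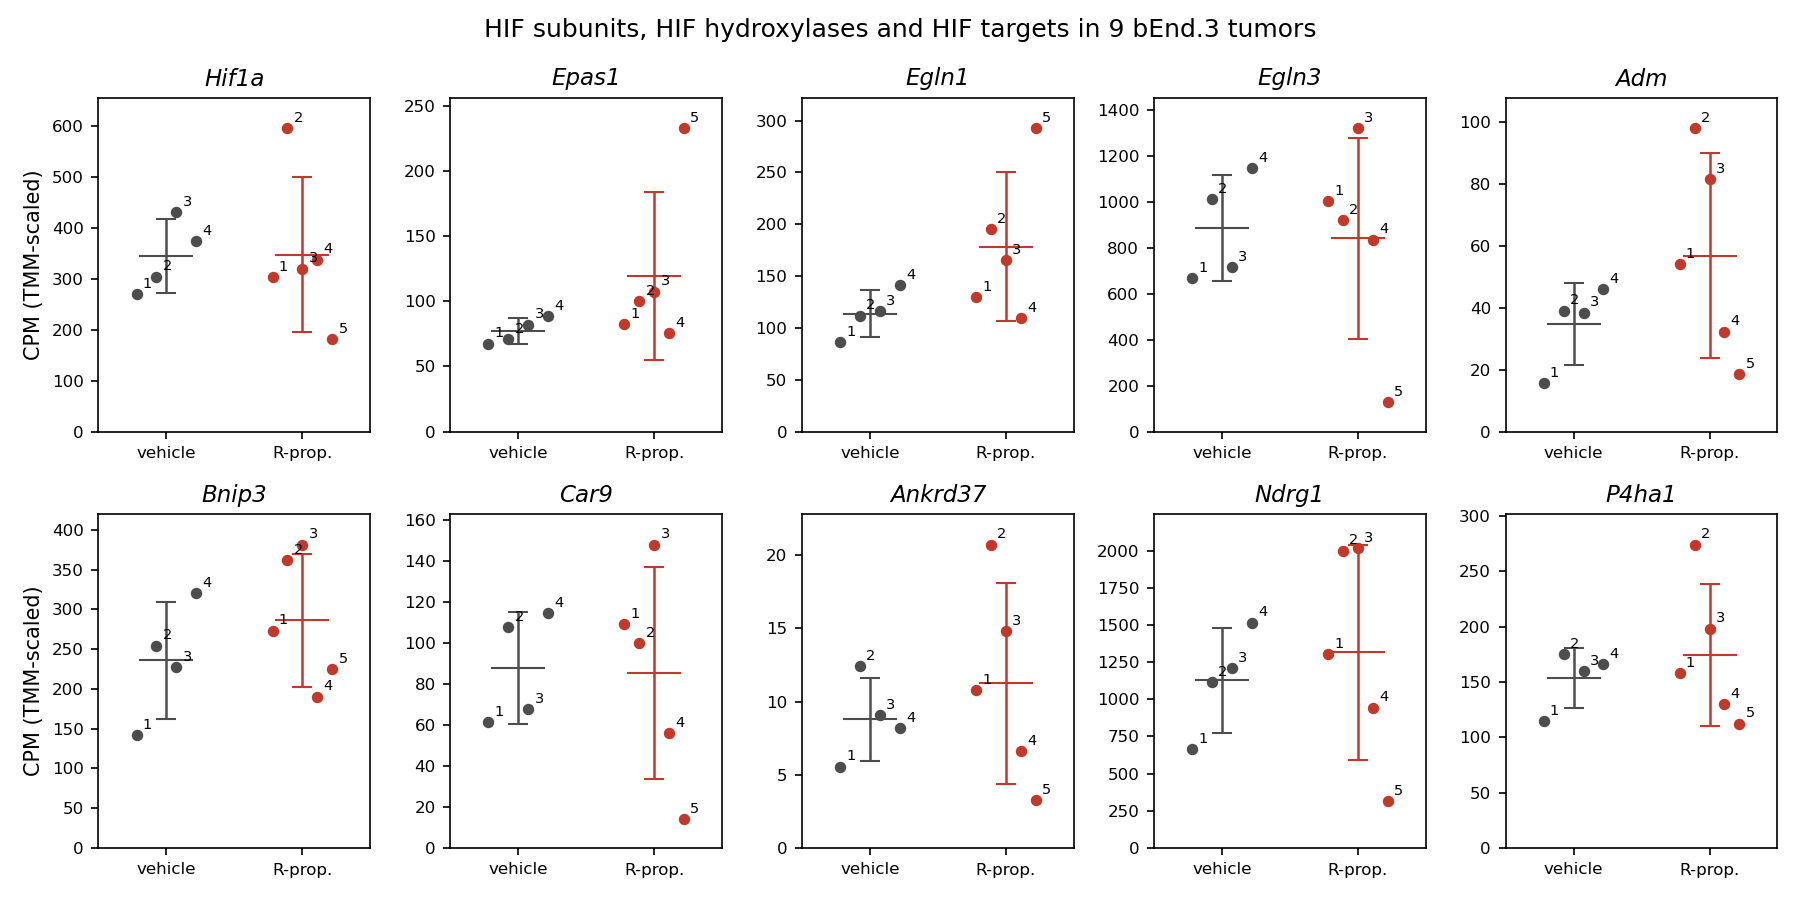
CPM after TMM scaling (vertical axis, from 0) of each member in 4 vehicle-treated (grey) and 5 R-propranolol-treated tumors (red), each point bearing its replicate number, with the mean and SD as bars. The groups overlap for every gene, vehicle replicate 1 is the lowest vehicle tumor in all 10 plots, and R-propranolol replicate 5 lies apart for Egln3 at 129 CPM, Epas1 at 232 CPM and Egln1 at 292 CPM.

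Hif1a encodes the HIF-1 alpha subunit and lies on chromosome 12 of GRCm38 from 73901375 to 73947530 (GENCODE M21, plus strand). Its level was 269, 304, 431 and 374 CPM in vehicle replicates 1 to 4 and 304, 595, 320, 338 and 181 CPM in R-propranolol replicates 1 to 5. Replicate 2 of the treated tumors was the highest and replicate 5 the lowest of all 9, and the other 3 treated tumors lay within the vehicle range. Vehicle-treated tumors averaged 345 ± 72.2 CPM (SD, n = 4), and treated tumors 347 ± 152 CPM (SD, n = 5). On the log2 scale the difference was 0.01 (standard error 0.31, 95% interval -0.69 to 0.72, edgeR adjusted p = 0.991), with p = 0.833 when mean log2 CPM was compared by the exact permutation test (two-sided). It was 0.17 without replicate 5 and fell to -0.27 without replicate 2, the tumor with the most fibroblast RNA. Whether that RNA has a part in the value was not tested. Of its 5896 exon bases, Hif1a shares 330 with Gm15283 on the other strand and 148 with Gm49321 on the same strand, and since the sources used here give no strand setting for the counting, reads from these bases cannot be assigned.

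Epas1 encodes the HIF-2 alpha subunit and lies on chromosome 17 from 86753700 to 86833410 (plus strand). Vehicle replicates 1 to 4 had 67.6, 71.1, 82.0 and 88.8 CPM, and R-propranolol replicates 1 to 5 had 82.4, 99.98, 107, 75.5 and 232 CPM. Treated replicates 2, 3 and 5 were above the highest vehicle tumor, with replicate 5 at 2.83 times the median of the other 8 tumors. Vehicle averaged 77.4 ± 9.79 CPM (SD, n = 4) and R-propranolol 120 ± 64.4 CPM (SD, n = 5). The log2 fold change was 0.63 (standard error 0.33, 95% interval -0.12 to 1.37, edgeR adjusted p = 0.876), and p was 0.143 in the exact permutation test. With replicate 5 left out it fell to 0.24 (standard error 0.13).

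Because both alpha subunits pair with the same partner, their ratio was also taken, on CPM per kb of exon. Hif1a was 3.78, 4.06, 4.98 and 3.99 times Epas1 in the vehicle-treated tumors and 3.49, 5.64, 2.82, 4.24 and 0.738 times in R-propranolol replicates 1 to 5. Thus Hif1a RNA exceeded Epas1 RNA per length in 8 tumors, and the order was turned in R-propranolol replicate 5. That tumor stood apart in muscle, adipocyte, fibroblast, macrophage and proliferation genes, and their part in the ratio was not tested.

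Egln1 encodes PHD2, the main hydroxylase that marks HIF alpha in oxygenated cells, and lies on chromosome 8 from 124908587 to 124949324 (minus strand). Levels were 86.3, 112, 116 and 141 CPM with vehicle and 129, 196, 166, 109 and 292 CPM with R-propranolol. Again treated replicates 2, 3 and 5 lay above every vehicle tumor, while replicates 1 and 4 lay inside the vehicle range. Its mean with vehicle was 114 ± 22.5 CPM (SD, n = 4), and with R-propranolol 178 ± 71.8 CPM (SD, n = 5). This is a difference of 0.65 on the log2 scale (standard error 0.29, 95% interval -0.004 to 1.30, edgeR adjusted p = 0.876), with p = 0.103 in the exact permutation test. It was 0.39 (standard error 0.20) without replicate 5, whose Egln1 level was 2.38 times the median of the other 8. The muscle list was at 145000 CPM in that tumor, and its part in the Egln1 level was not tested. The log2 fold change of Egln1 was positive in all 18 alternative analyses, from 0.25 to 0.81. An unadjusted p under 0.05 was reached in 5 of them, each of which kept replicate 5. Genes that passed there were 626 (no filter), 656 (DESeq2), 111 (without vehicle replicate 4), 565 and 737 (without R-propranolol replicate 1 or 4), against 320 in the main test. Without replicate 5 the unadjusted edgeR p of Egln1 was 0.081. These analyses reuse the same tumors and are not separate support.

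Egln3 encodes PHD3, a hydroxylase whose own RNA is strongly raised by HIF, and lies on chromosome 12 from 54178981 to 54203860 (minus strand). It was at 670, 1013, 718 and 1149 CPM in vehicle-treated tumors and at 1004, 921, 1322, 837 and 129 CPM in treated tumors. R-propranolol replicate 5 was the lowest by far, 7.49-fold below the median of the other 8 tumors, and treated replicate 3 was the highest. An average of 888 ± 231 CPM (SD, n = 4) with vehicle and 842 ± 439 CPM (SD, n = 5) with R-propranolol gave a log2 fold change of -0.08 (standard error 0.53, 95% interval -1.27 to 1.12, edgeR adjusted p = 0.969). An exact permutation test gave p = 0.873. The sign turned to 0.20 (standard error 0.21) without replicate 5. Hence in that tumor the hydroxylases went opposite ways, Egln1 highest and Egln3 lowest of all 9.

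Adm encodes adrenomedullin, a vasodilator peptide made by endothelial cells and induced in hypoxia, and lies on chromosome 7 from 110627661 to 110629820 (plus strand). Its level was 15.8, 39.1, 38.5 and 46.2 CPM in vehicle replicates 1 to 4 and 54.2, 98.1, 81.7, 32.4 and 18.6 CPM in the treated tumors. Treated replicates 1, 2 and 3 were above the highest vehicle tumor, and replicates 4 and 5 were not. An average of 34.9 ± 13.2 CPM (SD, n = 4) with vehicle and 57.0 ± 33.1 CPM (SD, n = 5) with R-propranolol gave the largest log2 fold change of the members, 0.71 (standard error 0.50, 95% interval -0.43 to 1.84, edgeR adjusted p = 0.876). The exact permutation p was 0.373. Without replicate 5 the log2 fold change was 0.93 (standard error 0.40, 95% interval 0.02 to 1.84, edgeR adjusted p = 0.9995), with p = 0.171 in the exact permutation test of 4 tumors against 4, which allows 0.0286 at the least.

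Bnip3 encodes a mitochondrial protein that directs mitophagy, and lies on chromosome 7 from 138890836 to 138909519 (minus strand). Vehicle-treated tumors had 142, 254, 227 and 320 CPM and treated tumors had 273, 362, 382, 190 and 224 CPM. Treated replicates 2 and 3 lay above all vehicle tumors, no treated tumor lay below them, and replicate 5 differed little from the others (0.851 of their median). Averaged, Bnip3 was at 236 ± 73.9 CPM (SD, n = 4) with vehicle and 286 ± 83.8 CPM (SD, n = 5) with R-propranolol, which is 0.28 on the log2 scale (standard error 0.28, 95% interval -0.36 to 0.92, edgeR adjusted p = 0.878). An exact permutation test gave p = 0.381. Of 2265 exon bases, 504 are shared with Gm45507 on the other strand.

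Car9 encodes carbonic anhydrase IX, a surface enzyme that sets the pH outside hypoxic cells and is a widely used tissue marker of HIF-1 activity. It lies on chromosome 4 from 43506966 to 43513729 (plus strand) and shares 214 of 2304 exon bases with Gm12454 on the other strand. The vehicle-treated tumors had 61.3, 108, 67.5 and 114 CPM, and the treated tumors had 109, 99.8, 148, 55.9 and 13.96 CPM. Replicate 5 was 7.42-fold below the median of the others, a distance close to that of Egln3, and treated replicate 4 also lay under the vehicle range. Averages were 87.7 ± 27.2 CPM (SD, n = 4) with vehicle and 85.3 ± 51.6 CPM (SD, n = 5) with R-propranolol. The log2 fold change was -0.04 (standard error 0.55, 95% interval -1.29 to 1.21, edgeR adjusted p = 0.983), and 0.23 without replicate 5. The exact permutation p was 0.754 with all tumors.

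Ankrd37, an ankyrin repeat gene known as a direct HIF-1 target, lies on chromosome 8 from 45996902 to 46005707 (minus strand). It was the member with the lowest level, at 5.55, 12.4, 9.09 and 8.16 CPM with vehicle and 10.8, 20.7, 14.8, 6.64 and 3.26 CPM with R-propranolol. Treated replicates 2 and 3 were above and replicate 5 below every vehicle tumor. The log2 fold change was 0.35 (standard error 0.49, 95% interval -0.76 to 1.47, edgeR adjusted p = 0.878), and the exact permutation test gave p = 0.833. It was 0.58 without replicate 5, 0.014 without replicate 2 and 0.29 without both, so it depended on which of these tumors were kept. Of its 1539 exon bases, 349 are shared with Lrp2bp and 57 with Ufsp2, both on the other strand.

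Ndrg1 encodes a stress protein that rises in hypoxic cells of many kinds, and lies on chromosome 15 from 66929318 to 66969640 (minus strand). Its level was 667, 1116, 1209 and 1515 CPM in vehicle-treated tumors, and in treated tumors it was 1303, 2000, 2017, 944 and 314 CPM. Treated replicates 2 and 3 were above the vehicle range and replicate 5 was below it, 3.99-fold under the median of the other tumors. Its log2 fold change was 0.22 (standard error 0.50, 95% interval -0.90 to 1.35, edgeR adjusted p = 0.892) and 0.47 (standard error 0.30) without replicate 5. It fell to 0.0227 without treated replicate 2, 0.0138 without treated replicate 3 and 0.0316 without vehicle replicate 1. With all tumors the exact permutation test gave p = 0.976. Ndrg1 shares 419 of 6596 exon bases with Gm17035 and 137 with Gm2895, on the other strand.

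P4ha1 encodes a catalytic subunit of collagen prolyl hydroxylase, an enzyme of collagen folding that is distinct from the HIF hydroxylases, and lies on chromosome 10 from 59323296 to 59373304 (plus strand). Levels were 114, 175, 160 and 166 CPM in vehicle-treated and 158, 274, 198, 130 and 112 CPM in treated tumors. Treated replicates 2 and 3 were once more the only ones above the vehicle range. Its log2 fold change was 0.18 (standard error 0.26, 95% interval -0.42 to 0.78, edgeR adjusted p = 0.878), and an exact permutation test gave p = 0.706. The log2 fold change was 0.30 without replicate 5, -0.04 without replicate 2 and 0.08 without both. Fibroblast RNA was highest in replicate 2, and whether it has a part in the value was not tested.

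**Figure D3:**
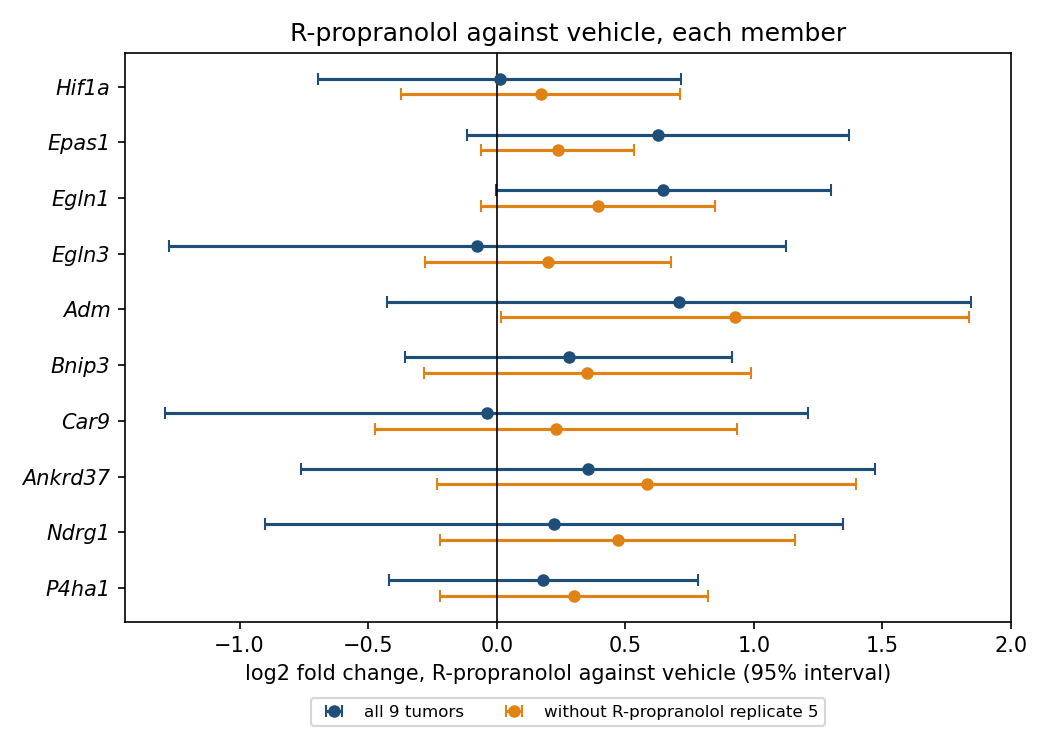
Log2 fold change of R-propranolol against vehicle (horizontal axis) with its 95% interval for each member, with all 9 tumors (blue) and without R-propranolol replicate 5 (orange). The intervals with all tumors include 0 for all 10 members, and without replicate 5 all 10 points lie above 0 and the interval of Adm runs from 0.02 to 1.84.

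The members differed in level far more than the groups did. Over the 8 tumors other than R-propranolol replicate 5, Egln3 had the highest level per length, 358 ± 81.6 CPM per kb of exon (SD, n = 8), followed by Ndrg1 at 204 ± 72.5 and Bnip3 at 119 ± 36.7. Next came Hif1a at 62.2 ± 17.8 CPM per kb, and then P4ha1 at 41.8 ± 11.8, Car9 at 41.4 ± 13.7, Egln1 at 36.7 ± 9.72 and Adm at 31.3 ± 16.6, which lay within the spread of one another. Epas1 at 15.1 ± 2.47 and Ankrd37 at 7.16 ± 3.22 CPM per kb were the lowest. In R-propranolol replicate 5 the order was different, with Bnip3 at 99.1, Egln1 at 81.4, Egln3 at 48.3, Ndrg1 at 47.7 and Epas1 at 41.6 CPM per kb. Car9 was there at 6.06 and Ankrd37 at 2.12 CPM per kb. Lengths are those of all exons in GENCODE M21, which may not be the annotation of the counts.

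**Figure D4:**
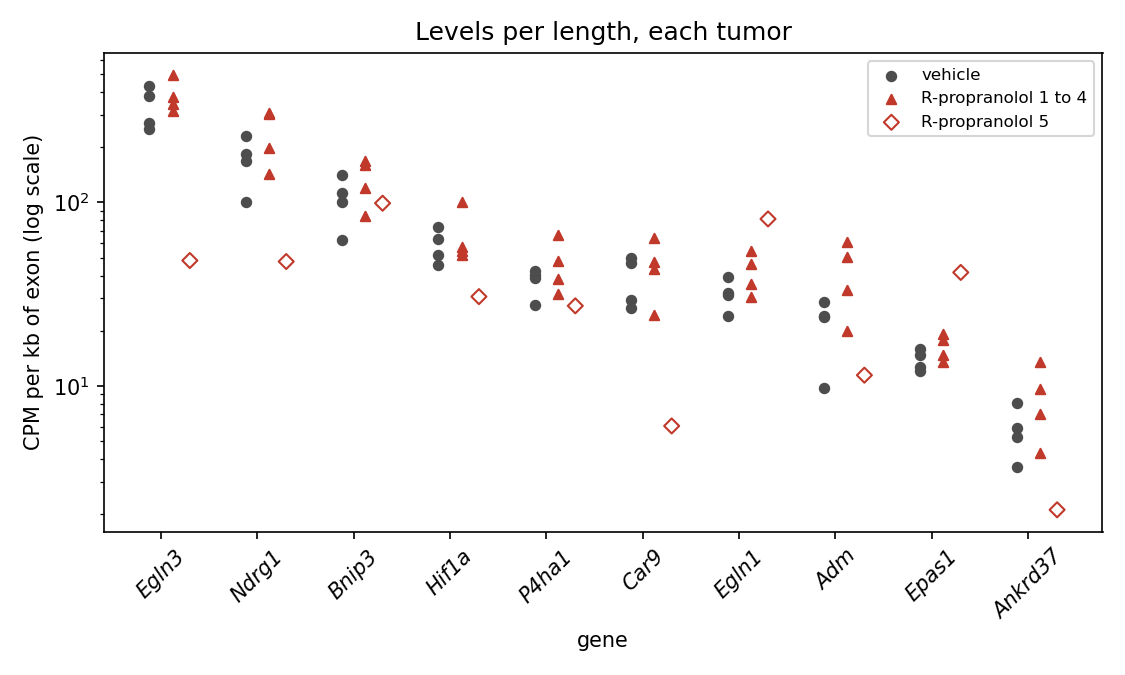
CPM per kb of exon (vertical log axis) of each member, ordered by the mean of 8 tumors, with 1 point per tumor for vehicle (grey circles), R-propranolol replicates 1 to 4 (red triangles) and R-propranolol replicate 5 (open diamonds). Egln3 is highest and Ankrd37 lowest in the 8 tumors, and replicate 5 lies below them for Egln3, Ndrg1, Hif1a, P4ha1, Car9 and Ankrd37 and above them for Egln1 and Epas1.

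What the members shared most was their order over tumors, which cut across the treatment groups. Vehicle replicate 1 was the lowest vehicle tumor for 10 of 10 members, and vehicle replicate 4 was the highest for 7. Such ranks were not counted over all genes, so these counts do not set the members apart. Without R-propranolol replicate 5, vehicle replicate 1 was the lowest of the 8 tumors for 9 of 10 members, and the highest was R-propranolol replicate 2 for 5 members and replicate 3 for the other 5. The mean standardized log2 CPM of the 8 members other than Hif1a and Epas1 was -1.0, 0.16, -0.11 and 0.35 in vehicle replicates 1 to 4. In R-propranolol replicates 1 to 5 it was 0.26, 1.09, 0.93, -0.46 and -1.22. Treated tumors thus held both the highest and the lowest values, and replicate 4 of that group lay below 3 of the 4 vehicle-treated tumors.

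Correlations between members are given as a description, since their points share the library and its scaling. Over 8 tumors without R-propranolol replicate 5, Pearson's r of log2 CPM was between 0.511 and 0.982 in the 28 pairs of the 8 members (median 0.861), and the median of Spearman's rho was 0.81. The median r was 0.795 when vehicle replicate 1 was also left out, and 0.877 when R-propranolol replicate 2 was left out in its place. With all 9 tumors the median r was 0.712 and 24 of 28 were positive. The 4 pairs below 0 each had Egln1 in them, with Egln3, Car9, Ankrd37 or Ndrg1. Spearman's rho over the same 9 tumors was positive in 28 of 28 (median 0.80). The closest pair without replicate 5 was Bnip3 and Ndrg1 (r = 0.982 over 8 tumors). The alpha subunits differed in how they followed the others. Epas1 had a median r of 0.833 with the 8 members without replicate 5 and -0.28 with it. By Spearman's rho over all 9 tumors its median was 0.291, with 8 of 8 positive. Hif1a had 0.591 and 0.685, but 0.308 over the 7 tumors without R-propranolol replicates 2 and 5.

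Each gene was also correlated with the mean standardized log2 CPM of the 8 members other than Hif1a and Epas1. These r are with a mean of genes, unlike the pairwise r above. The closest genes outside the members were Mcc (r = 0.979 over 9 tumors), Igfbp3 (0.971), Armcx5 (0.962), Pgk1 (0.959) and Fam162a (0.959). After these came Ap3s1, Ip6k1, Pop4, Utrn and Pttg1ip, with r from 0.956 to 0.958. For comparison the median r with that mean was 0.0937 over all 13901 genes tested and 0.635 over 59 other genes of the HIF pathway. Without replicate 5 these medians were 0.0251 and 0.744. Igfbp3, an insulin-like growth factor binding protein, had the largest ratio of highest to lowest tumor of the 10. It was at 32.6, 62.0, 79.4 and 99.7 CPM in vehicle-treated tumors and 86.7, 275, 162, 38.0 and 19.2 CPM in treated tumors. Pgk1 encodes a glycolytic kinase and Fam162a a mitochondrial protein, and both belong to the HIF pathway list.

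Other genes of the pathway gave a wider view. Of 63 in the list, 59 were tested. In R-propranolol-treated tumors 46 had a positive and 13 a negative log2 fold change, against 54.3% positive over all genes, and the median was 0.26 against 0.03. By edgeR 0 of 59 had an adjusted p under 0.05. Before adjustment, 3 were higher and 0 lower with p under 0.05, against 2.01% and 0.288% of all genes. The list depended on the tumors that stood apart. Without replicate 5, 54 of 58 were positive (53.7% of all genes) and 6 were higher at an unadjusted p under 0.05 (2.65% of all genes), with a median of 0.20 against 0.01. Without replicate 2, 39 of 58 were positive (51.0% of all genes), 0 were higher at that p (1.83%) and the median was 0.14. Leaving out both gave 44 of 58 positive (49.0%), 2 higher at that p (2.81%) and a median of 0.11. Library size alone gave 37 of 59 positive (35.8%), 3 higher at that p (1.24%) and a median of 0.15 against -0.10. Untested for low counts were Hif3a, Car12, Epo and Eno1, of which Eno1 had 0 to 2 counts beside 1423 to 6556 for Eno1b, a near-identical copy, so that enolase reads cannot be assigned.

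Among subunits and regulators, 6 of 7 tested genes were positive (54.3% of all genes), with 0 at an unadjusted p under 0.05 (2.30% of all genes). Arnt, the beta subunit, was even in all tumors, with 123, 133, 121 and 145 CPM in vehicle-treated and 138, 128, 156, 137 and 116 CPM in treated tumors. Its log2 fold change was 0.05 (standard error 0.11). Hif1an, the asparagine hydroxylase FIH that blocks the activation domain of HIF alpha, was at 45.1 to 53.4 CPM in 8 tumors and at 349 CPM in R-propranolol replicate 5. Egln2, the prolyl hydroxylase PHD1, was at 54.8 to 64.8 CPM in 8 tumors and at 184 CPM in the same replicate. Including Egln1, 3 of the 4 HIF hydroxylases were therefore highest in R-propranolol replicate 5, and Egln3 was lowest there. Whether the muscle RNA of that tumor has a part in these values was not tested.

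Of 7 angiogenic and vascular targets, 6 were positive (54.3% of all genes), with a median log2 fold change of 0.92. That median became 0.98 without R-propranolol replicate 5, 0.15 without replicate 2 and 0.27 without both. Vegfa, the main angiogenic growth factor, was the most abundant and lay at 431, 692, 787 and 907 CPM in vehicle-treated and 1007, 968, 1008, 530 and 332 CPM in treated tumors. Treated replicates 1, 2 and 3 were above every vehicle tumor and replicate 5 below them, as for Adm except that Adm in replicate 5 was above vehicle replicate 1. Its log2 fold change was 0.13 (standard error 0.37, edgeR adjusted p = 0.915), and 0.32 without replicate 5. Edn1, the constrictor peptide endothelin, had 1.59, 1.08, 1.71 and 0.570 CPM in vehicle-treated and 1.76, 7.64, 1.90, 1.56 and 4.39 CPM in treated tumors. It was 1 of the 3 list genes at an unadjusted p under 0.05, and its difference was 1.47 on the log2 scale (standard error 0.58, edgeR adjusted p = 0.876, exact permutation p = 0.0714). These values rest on 12 to 191 counts per tumor. Without replicate 5 the difference was 1.36 (standard error 0.60, edgeR unadjusted p = 0.051), and without replicate 2 Edn1 was not among genes under 0.05.

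Of 22 tested targets in glucose uptake and glycolysis, 17 were positive and 5 negative, against 54.3% positive over all genes. Higher at an unadjusted p under 0.05 were 2, Hk2 and Ppp1r3c (2.01% of all genes). Hk2, a hexokinase of muscle and of hypoxic cells, was at 75.2, 101, 106 and 92.9 CPM with vehicle and 108, 190, 128, 121 and 520 CPM with R-propranolol, so that all 5 treated tumors were above all 4 vehicle tumors. Its log2 fold change was 1.19 (standard error 0.48, edgeR adjusted p = 0.876, exact permutation p = 0.0556). Without replicate 5 it was 0.54 with an edgeR adjusted p of 0.9995, and the exact permutation p of 0.0286 was the least that 4 tumors against 4 allow. Hk2 was named for its unadjusted p in these same tumors, so its separation was not a question set beforehand. With all tumors, 175 of the 13901 genes tested (1.26%) likewise had groups without overlap in CPM. Ppp1r3c, a glycogen targeting subunit, had 577 CPM in replicate 5 and at most 1.38 CPM in each other tumor. Aldoa, the aldolase of muscle and of glycolysis in general, had 20900 CPM there and 1408 to 2389 CPM in the other 8. Without that tumor 21 of 21 were positive (53.7% of all genes), with a median of 0.19 that had been 0.50, and 4 were higher at an unadjusted p under 0.05 (2.65% of all genes). Leaving out replicates 2 and 5 gave 16 of 21 positive (49.0% of all genes), 2 higher at that p (2.81%) and a median of 0.13.

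Acid-base and matrix targets were divided, with 3 of 5 positive (54.3% of all genes). Lox, which cross-links collagen, was at 911 CPM in R-propranolol replicate 2 and at 64.5 to 148 CPM in the others, and Plod1, a collagen lysyl hydroxylase, was at 192 CPM there and at 44.8 to 117 CPM in the others. The 31300 CPM of fibroblast genes lay in this same replicate, and their part in these values was not tested. Loxl2, another cross-linking enzyme and the most abundant of this group, was lowest in replicate 5 at 366 CPM, against 930 to 1427 CPM. Of 8 mitochondrial and survival targets all were positive (54.3% of all genes), with a median of 0.33. Positive were 8 of 8 without replicate 5 (53.7% of all genes), 4 of 8 without replicate 2 (51.0%) and 7 of 8 without both (49.0%). Ak4, a mitochondrial adenylate kinase, and Ndufa4l2, a subunit-like protein of the respiratory chain, had 31.3 and 94.5 CPM in replicate 2 and at most 9.64 and 18.0 CPM elsewhere. Bnip3l, the paralog of Bnip3, differed by 0.04 on the log2 scale (standard error 0.20), and by 0.16 without replicate 5.

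In the last group, of chromatin, transcription and other targets, 6 of 10 tested genes were positive (54.3% of all genes). Bhlhe40, a transcriptional repressor induced by HIF, had 73.5, 142, 155 and 155 CPM in vehicle-treated and 176, 258, 230, 112 and 200 CPM in treated tumors. All treated tumors but replicate 4 lay above the vehicle range. Its log2 fold change was 0.57 (standard error 0.29, edgeR adjusted p = 0.876, exact permutation p = 0.111). Mif, a secreted cytokine and the most abundant of the group, was at 122 CPM in replicate 5 and at 518 to 690 CPM in the other 8. Stc2, a secreted glycoprotein, was at 14.6 CPM in replicate 5, 9.53 CPM in replicate 2 and at most 3.18 CPM elsewhere.

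**Figure D5:**
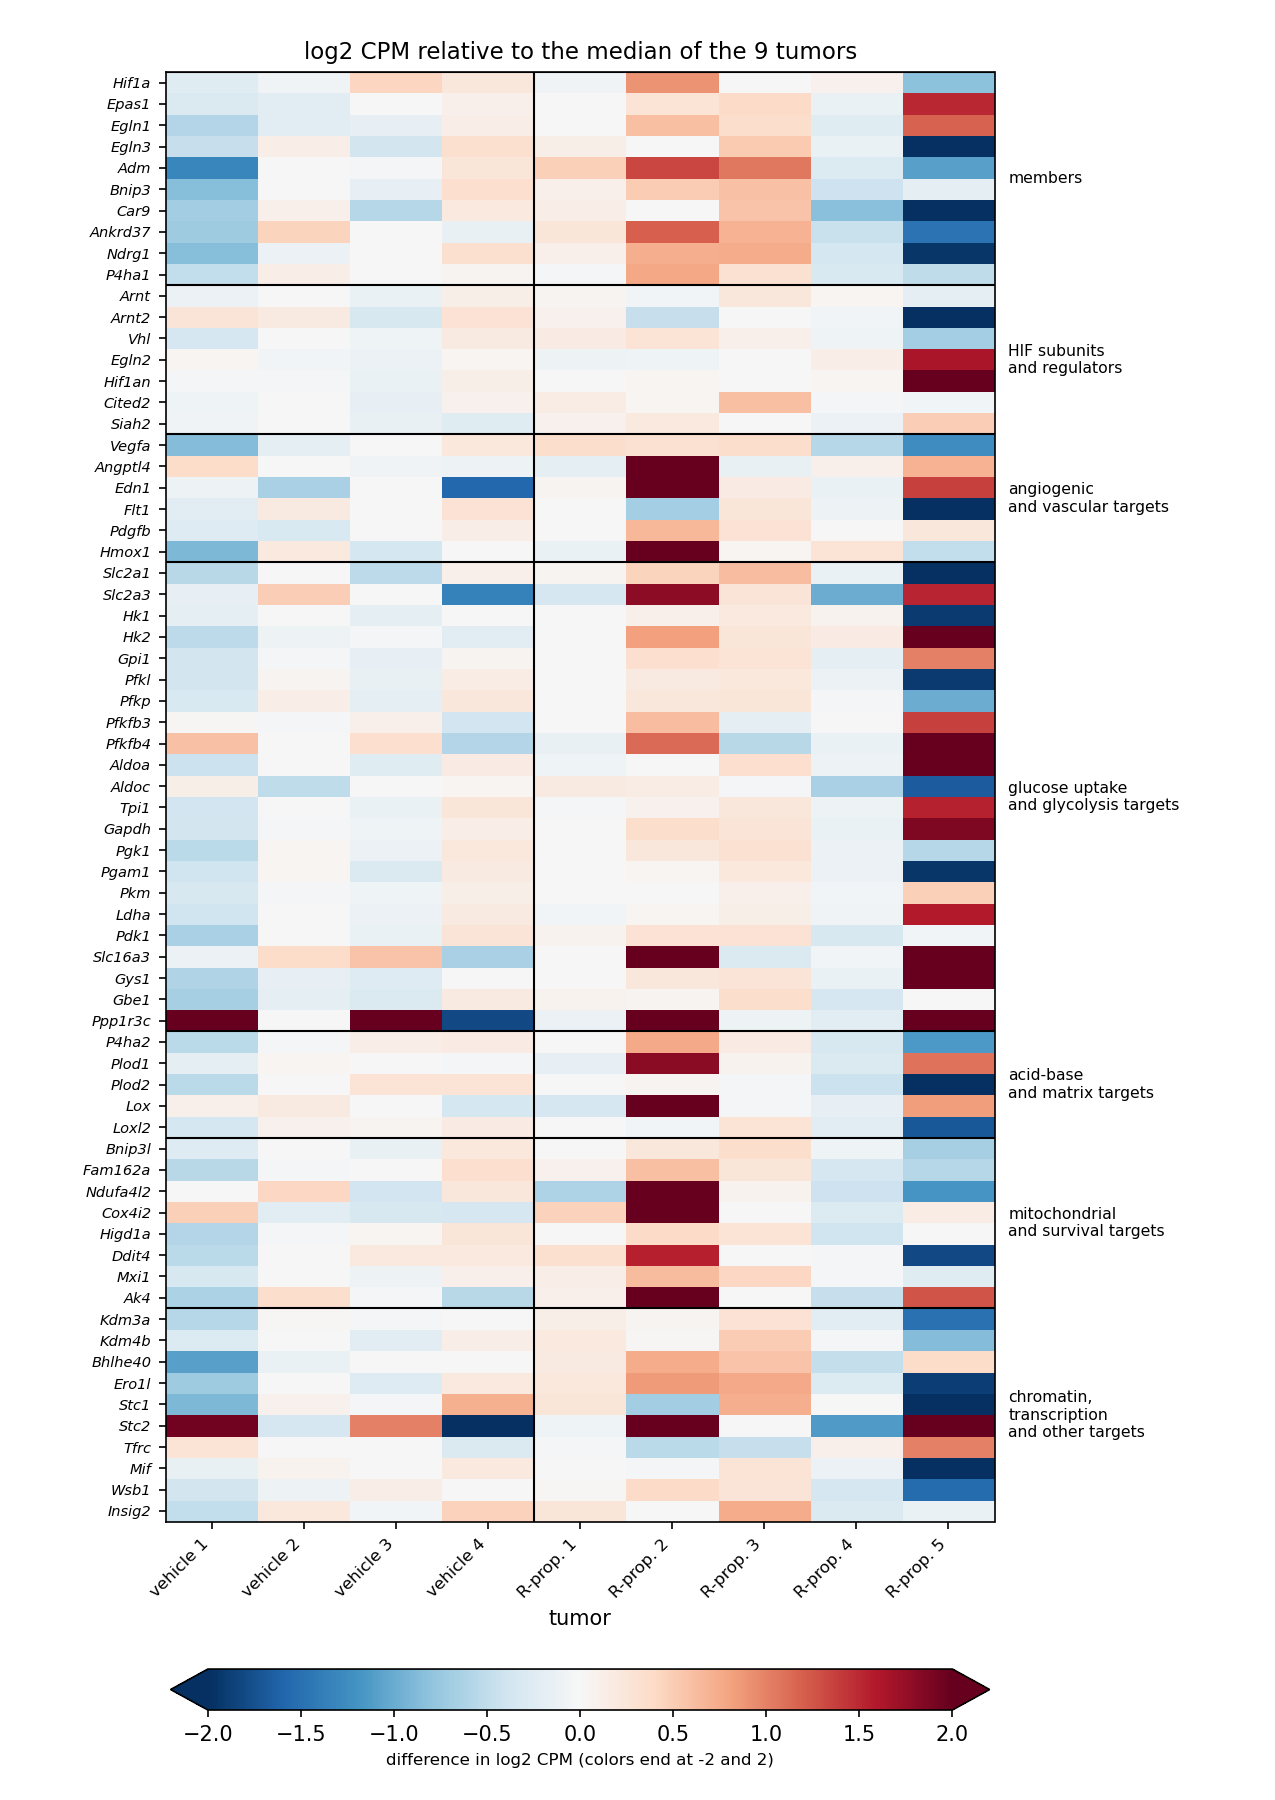
Difference of log2 CPM from the median of the 9 tumors (color, red higher and blue lower, ending at -2 and 2) for the 10 members and 58 of the 59 tested pathway genes by role (rows) in each tumor (columns, vehicle at the left of the line). Vehicle replicate 1 is blue and R-propranolol replicate 3 red in most rows, and replicate 2 is deep red for Angptl4, Edn1 and Lox. Replicate 5 holds both deep reds, such as Hif1an and Aldoa, and deep blues, such as Egln3 and Car9.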

How the data were processed

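RNA was measured in 9 bEnd.3 tumors, with paired reads of 150 bases. The submitters' processing notes name FastQC, STAR, HTSeq, edgeR and the mm10 build. Tool versions, strand setting and annotation were not given in the sources used here. Values as deposited by the authors are raw counts per gene symbol, without normalization. Reads that HTSeq did not assign to 1 gene were left out of library sizes: 13.4% to 15.4% of reads lay outside genes, 1.81% to 1.98% were ambiguous and 3.46% to 7.86% mapped to several places.

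Counts were compared with edgeR 4.0.16 (R 4.3.3) by the quasi-likelihood test on all genes that passed filterByExpr (minimum count 10, minimum total 15), with TMM scaling and Benjamini-Hochberg adjustment over 13901 genes. Intervals are at 95% from the test's own distribution. CPM are TMM-scaled, and log2 CPM has a prior count of 0.25. Exact permutation tests (two-sided) compared mean log2 CPM over 126 assignments of 9 tumors, with 0.00794 the least possible p. The members and lists were chosen with earlier results of these data known, so no p is adjusted over a list alone. Named pathway genes are, in each role group, the 2 largest absolute log2 fold changes and the most abundant gene, and all with an unadjusted p under 0.05, to which the 10 genes most correlated with the members were added. Of these, 1 pathway gene is not reported here. Exons are from GENCODE M21 and promoters from RefSeq (GRCm38.p6). Alternatives used DESeq2 1.42.0 and limma 3.58.1, other filters and scalings, a replicate block, and fewer tumors. Leaving out R-propranolol replicates 2 and 5 together was added after the data had been seen. Tumor sizes and protein measurements were not analysed here.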

Additional observations from a re-analysis of the deposited data

Results flagged for a closer look

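Within the groups, 76 sets of values (members and named genes in 4 vehicle-treated or 5 treated tumors) were checked for a tumor far from the rest, by its gap to the nearest tumor as a share of the whole range, both on log2 CPM. In 10 of them 1 tumor lay past Dixon's critical value. Chance gives about 1 in 20 for values not chosen beforehand, but many of these genes were named for a large difference that R-propranolol replicate 5 can make by itself, so the count cannot be read against that rate. Among members, these were Egln3 in R-propranolol replicate 5 (129 CPM against 837 to 1322, share 0.804) and Adm in vehicle replicate 1 (15.8 CPM against 38.5 to 46.2, share 0.832).

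R-propranolol replicate 5 was far from the rest for 7 of the 10. Beside Egln3 these were Hif1an (349 CPM, share 0.985), Egln2 (184 CPM, share 0.872), Ppp1r3c (577 CPM, share 0.774) and Aldoa (20900 CPM, share 0.876), which were highest there, and Loxl2 (366 CPM, share 0.749) and Mif (122 CPM, share 0.847), which were lowest. The skeletal muscle list was at 145000 CPM in this tumor, and its part in these values was not tested. Vehicle replicate 1 was the lowest for the other 3, namely Adm, Bhlhe40 (73.5 CPM, share 0.882) and Pop4 (9.42 CPM, share 0.845).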

How the results depend on the processing

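Of 180 log2 fold changes (10 members in 18 alternatives), 159 kept their direction, and no adjusted p of a member was below 0.66. Those of Epas1, Egln1, Adm, Bnip3, Ankrd37 and Ndrg1 stayed positive in all 18. The sign of Hif1a turned negative with library size alone (-0.10), no filter (-0.0002), limma-voom with quality weights (-0.0122), vehicle replicates 1 and 2 summed (-0.0703), R-propranolol replicates 2 and 5 left out (-0.10) and in leaving out 1 tumor, where it ran from -0.27 (without R-propranolol replicate 2) over -0.09 and -0.05 (without vehicle replicate 1 or 2) to 0.17. P4ha1 turned to -0.0383 without R-propranolol replicate 2, the low end of leaving out 1 tumor (to 0.30 without R-propranolol replicate 5). Egln3 turned positive with quality weights (0.16), without vehicle replicate 4 (0.07) or R-propranolol replicate 5 (0.20) and without both treated replicates (0.25), and leaving out 1 tumor gave -0.302 (without R-propranolol replicate 3) to 0.20. Car9 turned positive with quality weights (0.16), without vehicle replicates 2 (0.07) or 4 (0.12), R-propranolol replicates 4 (0.07) or 5 (0.23) and without both treated replicates (0.25), with -0.336 without R-propranolol replicate 3. The cause was not tested.

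The replicate block gave 0.22 for Egln3 and 0.21 for Car9, so 10 members were positive, and 283 genes had an unadjusted p under 0.05. R-propranolol replicate 5 has no vehicle tumor of its number, so in this model it adds nothing to the difference. The values are thus close to those without replicate 5 (0.20 for Egln3 and 0.23 for Car9) and are not a separate result. Same-numbered tumors deviated together with r of -0.283, 0.0879, -0.636 and 0.534, so the tumors were not treated as pairs.

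Genes with an unadjusted p under 0.05 were 320, and 626 without a filter, 656 in DESeq2, 838 with quality weights, 100 with vehicle replicates 1 and 2 summed, 639 without both treated replicates, and 103 (without vehicle replicate 2) to 737 (without R-propranolol replicate 4) when 1 tumor was left out. An adjusted p under 0.05 was reached by 2 genes in DESeq2, Egr1 and Dusp1, which are no members. Members with an unadjusted p under 0.05 were 0 to 1, namely Egln1 without a filter (1), in DESeq2 (1) and without vehicle replicate 4 or R-propranolol replicate 1 or 4, and Adm without R-propranolol replicate 5. Positive members numbered 6 to 10 when 1 tumor was left out.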
